A study of Mus musculus with 14 samples.

Results

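The levels of 6 genes were followed through the muscularis, the muscle coat of the mouse gut: Colec10, Shisa6, Nek10, Gm17029, Fam155a (also called Nalf1) and Tafa2 (also called Fam19a2). All 6 are among the 40481 genes of the bulk count table and among the genes of the nuclei matrices. They were chosen by their UMI levels in colon nuclei, since earlier readings of these libraries had noted them as marking 1 type of colonic smooth muscle nucleus, or as low in smooth muscle nuclei of the knockout. For Colec10 and Gm17029, bulk colon results were in view as well. The colon comparison of genotypes and the levels by class of nuclei are therefore a description of what chose the genes, since a marker of 1 type is by definition low in others. The comparison of genotypes in bulk jejunum is the part that the choice did not use. Comparisons between tissues take in the bulk colon libraries, which were in view for Colec10 and Gm17029. The change between tissues also contains the colon change itself. The series compared C57BL/6 mice labelled Carmn iKO with mice labelled WT mTmG. Carmn is a smooth muscle long non-coding RNA, and mTmG is the name of a fluorescent Cre reporter allele. The labels give no age, no Cre driver and no induction scheme, and do not say whether the knockout also carries the reporter. Bulk RNA was sequenced from 3 libraries of each genotype in colon and 3 of each in jejunum, and nuclei from 1 colon library of each genotype. No label says whether the libraries came from separate animals, so p-values measure the spread between these libraries.

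The members have unrelated textbook roles. Colec10 encodes a collectin, a secreted sugar-binding lectin that can feed the lectin route of complement. Shisa6 is a membrane protein that binds AMPA-type glutamate receptors and slows their desensitisation. Nek10 belongs to the NIMA-related kinases and is known for its role in motile cilia. Fam155a is an auxiliary subunit of the sodium leak channel NALCN, which sets resting excitability in neurons and pacemaker cells. Tafa2 is a small secreted chemokine-like protein best known from the nervous system. Gm17029 has no established function. Smooth muscle of the gut works as a syncytium with interstitial cells of Cajal, the pacemaker cells, under the control of enteric neurons, so bulk muscularis RNA mixes the RNA of all of these.

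In GENCODE M21 (GRCm38), Colec10 lies at chr15:54410774-54466358 on the plus strand and Shisa6 at chr11:66211725-66525964 on the minus strand. Nek10 occupies chr14:14803415-15012059 and Tafa2 chr10:123263996-123741204, both on the plus strand, and Fam155a chr8:9205902-9771161 on the minus strand. Gm17029 lies at chr4:148960297-148984671 on the plus strand and is annotated as antisense: its whole length except the first bases falls inside Pex14, a peroxisomal import gene transcribed from the minus strand at chr4:148960535-149099876. RefSeq promoter windows (GRCm38.p6, 250 bases before to 50 after a start) were found for 3 of the 6 members, Nek10, Gm17029 and Tafa2. The Nek10 window begins downstream of the GENCODE start, at another annotated start. The windows are shown because these 3 genes were all lower in smooth muscle-like nuclei labelled KO, and because an accessible region was listed over the Tafa2 window in that library. Capitals mark the MCAT element (CATTCC, read on both strands), a motif of muscle promoters. The CArG box, the element of smooth muscle contractile genes, was searched on both strands as well.
Nek10, chr14:14820565-14820864, plus strand: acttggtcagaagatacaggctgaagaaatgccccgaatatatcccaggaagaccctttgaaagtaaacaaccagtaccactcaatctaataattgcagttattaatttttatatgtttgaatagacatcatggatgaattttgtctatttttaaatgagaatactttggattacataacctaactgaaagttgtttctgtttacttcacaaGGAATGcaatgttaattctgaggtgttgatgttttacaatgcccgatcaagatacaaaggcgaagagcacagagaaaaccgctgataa
Gm17029, first start, chr4:148959914-148960213, plus strand: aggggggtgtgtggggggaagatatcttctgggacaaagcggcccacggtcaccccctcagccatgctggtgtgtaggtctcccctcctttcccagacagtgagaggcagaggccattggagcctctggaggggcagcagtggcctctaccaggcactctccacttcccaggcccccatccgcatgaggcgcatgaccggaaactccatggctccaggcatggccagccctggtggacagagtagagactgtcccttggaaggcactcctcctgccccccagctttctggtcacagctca
Gm17029, second start, chr4:148966066-148966365, plus strand: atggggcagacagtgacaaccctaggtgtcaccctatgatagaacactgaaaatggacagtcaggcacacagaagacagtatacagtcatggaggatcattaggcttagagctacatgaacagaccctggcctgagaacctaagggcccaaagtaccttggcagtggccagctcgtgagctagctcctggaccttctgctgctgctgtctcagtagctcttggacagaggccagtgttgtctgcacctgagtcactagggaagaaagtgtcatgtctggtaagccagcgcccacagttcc
Tafa2, chr10:123263826-123264125, plus strand: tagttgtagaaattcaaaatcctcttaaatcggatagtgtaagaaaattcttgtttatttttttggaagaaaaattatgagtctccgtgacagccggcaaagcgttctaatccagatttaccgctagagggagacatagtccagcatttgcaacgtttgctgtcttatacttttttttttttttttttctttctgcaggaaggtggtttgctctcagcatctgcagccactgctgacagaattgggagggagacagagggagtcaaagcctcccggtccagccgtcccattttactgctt
The Nek10 window held 1 MCAT element, beginning 38 bases before the start, and the other 3 windows held none; 14.7% of all 32851 windows of 300 bases hold one. No window of these 4 held a CArG box, which 1.63% of all windows hold. GC content was 34.7% in the Nek10 window, 41.7% in the Tafa2 window, and 62.7% and 52.7% in those of Gm17029, beside a median of 52.7% over all windows. A match or its lack describes these letters only.

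Total counts ran from 24254905 to 44315104 per bulk library. The targeted gene went against the bulk labels: Carmn was read at 304 to 718 CPM (counts scaled to a common library total, by TMM) in colon libraries labelled KO against 171 to 351 in WT, and at 817 to 996 against 206 to 326 in jejunum. The whole-gene count says nothing of which exons were read, so every direction below is between libraries labelled KO and WT. In nuclei, Carmn went with the label, at 1670 UMI CPM in smooth muscle-like nuclei labelled WT and 629 in those labelled KO. UMI CPM is a gene's summed UMIs (unique molecules) scaled to the same total, over all UMIs of the nuclei summed. After filtering, 2632 nuclei labelled WT (median 1698 UMIs) and 1585 labelled KO (median 1981) formed 19 clusters, built without the 6 members; 11 barcodes occur in both libraries. With 1 nuclei library per genotype there is no replicate check, and intervals given for nuclei cover counting error only. Fewer cells of a type and less RNA per cell cannot be told apart in bulk.

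Of these, 4 clusters carried the smooth muscle marker list used for naming, 10 of 10 detected in each (Myh11, Acta2, Actg2, Des and others), and are called smooth muscle-like. The naming score, a mean log2 excess of the markers over the other clusters, was 2.04 in cluster 0, 2.05 in cluster 12 and 1.51 in cluster 1. In cluster 16 it was 0.99, close to the minimum of 0.9. Cluster 0 was led by Colec10, Gm11946, Nek10, Epha7 and Actn2, cluster 12 by Igfbp2, Alkal1, Fgf7, Fn1 and Id4, cluster 16 by Hs3st4, Grin3a and Dpp10, and cluster 1 by Ctla2a, Fam189a1 and Fbn2. Their makeup differed between the libraries. Cluster 0 held 477 of the 888 smooth muscle-like nuclei labelled WT (53.7%) but 115 of 431 labelled KO (26.7%), and cluster 12 held 26.7% and 47.8%. Values pooled over smooth muscle-like nuclei are therefore given beside those within clusters.

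**Figure D1:**
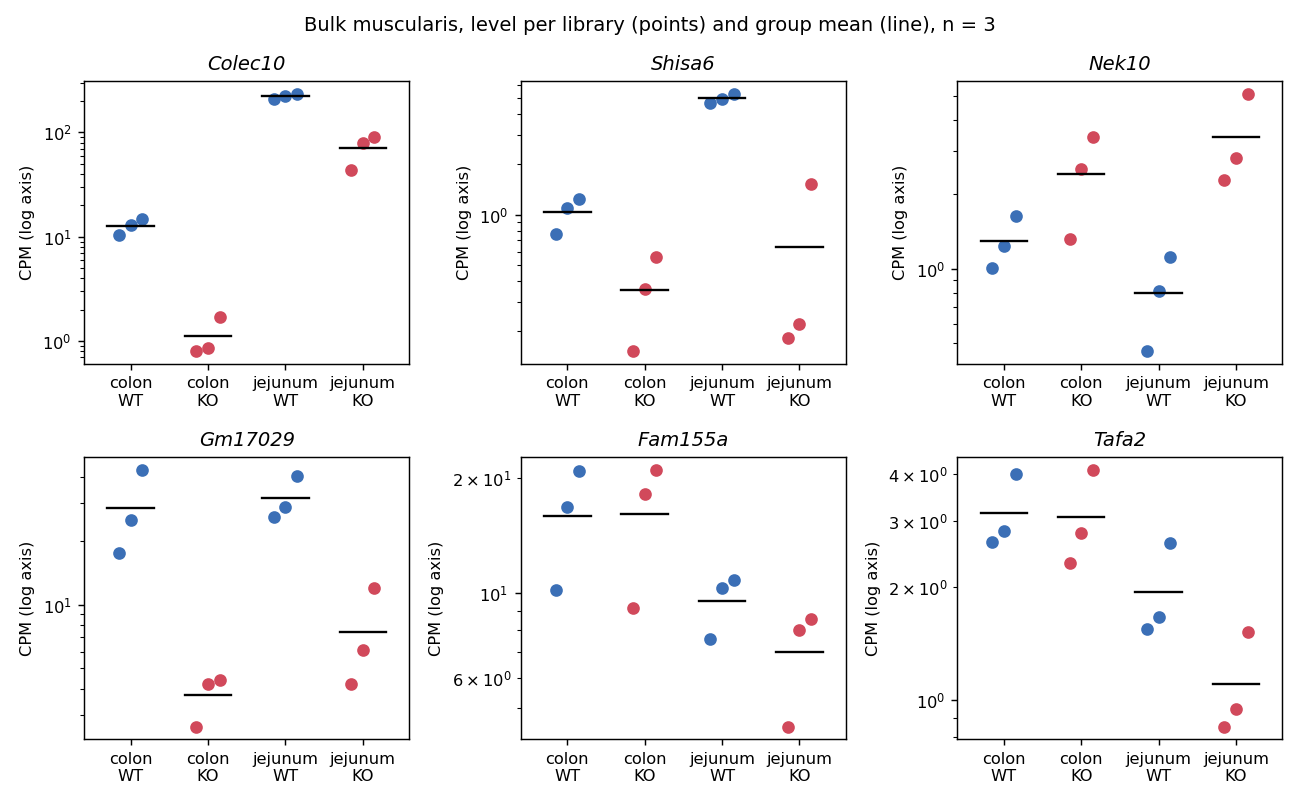
Level of each gene in CPM (log axis, its range differing between panels) in the 12 bulk libraries; points are libraries, lines are means of 3, blue is WT and red is labelled KO. Colec10 separates all 4 groups, Nek10 is the only one of the 6 whose jejunum libraries labelled KO all lie above WT, and Fam155a and Tafa2 overlap in colon.

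Colec10 was the lectin of the set and the member with the clearest tissue pattern. In WT jejunum it was read at 221, 234 and 210 CPM, and in WT colon at 14.9, 12.9 and 10.4 CPM. Colon libraries labelled KO gave 1.72, 0.867 and 0.81 CPM, and jejunum libraries labelled KO gave 43.3, 90.3 and 79.1 CPM. The 4 groups did not overlap. WT colon was 17.4-fold below WT jejunum (log2 difference -4.12 ± 0.34 SE, edgeR quasi-likelihood test, Benjamini-Hochberg adjusted p = 0.000325, n = 3 and 3). Of all 20886 genes tested, 1.56% passed the threshold of 0.05 in that comparison (0.862% lower, 0.694% higher in colon), and Colec10 was the only one of the 6 members that did. Its WT colon libraries were part of the colon results already in view. Within jejunum, the log2 difference between labelled KO and WT was -1.64 ± 0.31 (adjusted p = 0.0629), 3.12-fold lower on average and lower in 3 of 3 libraries, but not past the threshold. In colon the log2 difference was -3.47 ± 0.34 (edgeR, adjusted p = 0.00306), 11.1-fold lower, a comparison already in view when the gene was chosen. Fitted on the colon libraries alone, that value had an adjusted p of 0.117. The colon change was larger by 1.83 ± 0.44 on the log2 scale, a difference that did not pass (adjusted p = 0.937).

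In colon nuclei, Colec10 sat in smooth muscle-like nuclei: 267 of its 333 UMIs in the WT library, 80.2%, against 27.9% of all UMIs. Cluster 0 alone held 256 of them, at 183 UMI CPM (95% Poisson interval 161 to 206), and 129 of its 477 nuclei had a UMI. Clusters 12 and 16 stood at 7.92 and 25.3 UMI CPM, and cluster 1 had 0 UMIs. The whole library labelled KO held 6 Colec10 UMIs, 5 of them in cluster 0, at 15.2 UMI CPM (4.92 to 35.4). The lower level was also present within the cluster, where the KO to WT ratio was 0.083 (0.0267 to 0.196). Pooled over smooth muscle-like nuclei, the level went from 116 to 3.35 UMI CPM, 34.7-fold, and with the 4 clusters given equal weight the ratio rose from 0.0288 to 0.0702.

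Shisa6, the AMPA receptor partner, had few reads in bulk colon and in jejunum libraries labelled KO, and more in WT jejunum. WT jejunum libraries held 144, 170 and 176 reads (5.3, 4.95 and 4.69 CPM) and jejunum libraries labelled KO held 30, 8 and 8 (1.52, 0.22 and 0.181 CPM). WT colon libraries held 40, 28 and 28 reads and colon libraries labelled KO 7, 16 and 14. Neither pair of groups overlapped, and in each tissue every library labelled KO was lower. In jejunum the log2 difference was -3.03 ± 0.75 (edgeR, adjusted p = 0.127), an 8.18-fold lower mean that did not pass the threshold. The call depended on the library and on the method: without the jejunum library labelled KO m1, the highest of its group, the difference was -4.64 (adjusted p = 0.0217), and with all libraries kept DESeq2 and limma voom called the gene. In colon it was -1.56 ± 0.74 (adjusted p = 0.361), and WT colon stood 4.82-fold below WT jejunum (-2.27 ± 0.71, adjusted p = 0.167).

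Shisa6 UMIs in nuclei were few and cluster 0 held most of them, 98 of 148 in the WT library, at 69.9 UMI CPM (56.8 to 85.2). Cluster 12 had 6, cluster 1 had 4 and cluster 16 none. In the library labelled KO, smooth muscle-like nuclei held 3 UMIs, all in cluster 0, which gives 9.1 UMI CPM (1.88 to 26.6) there and a ratio of 0.13 (0.0264 to 0.392). Elsewhere the gene did not follow that direction. Cluster 11, enteric neuron-like nuclei led by Tafa1 and Unc5d, had 7 UMIs labelled WT and 18 labelled KO, the latter in 4 of 36 nuclei, at 39.8 against 10.9 UMI CPM. In the KO library neuron-like nuclei thus held 19 of the 27 Shisa6 UMIs. A further 14 UMIs labelled WT came from lymphatic endothelial-like nuclei, where 2 of 48 nuclei carried all of them. They put that class at 136 UMI CPM, above the 46.9 of all smooth muscle-like nuclei labelled WT. Gm12296 overlaps Shisa6 on the opposite strand and was near 0 in bulk, at most 0.368 CPM, with 21 UMIs labelled WT and 1 labelled KO in smooth muscle-like nuclei.

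Gm17029, the antisense transcript, was lower in every bulk library labelled KO of both tissues. WT colon gave 25, 17.6 and 43.3 CPM and WT jejunum 28.7, 26 and 40.4 CPM. The libraries labelled KO gave 4.41, 4.23 and 2.66 CPM in colon and 4.21, 12 and 6.11 CPM in jejunum. WT levels overlapped between the tissues (-0.15 ± 0.41 log2), and the KO groups did not reach the WT groups in either. In jejunum, which the choice did not use, the log2 difference was -2.09 ± 0.42 (edgeR, adjusted p = 0.0769), 4.26-fold lower and short of the threshold; without the jejunum library labelled KO t1 it was -2.63 (adjusted p = 0.0446). In colon it was -2.92 ± 0.44 (edgeR, adjusted p = 0.025), a call lost when any 1 of 4 libraries was left out. That colon comparison was already in view when the gene was chosen.

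The host gene of Gm17029 moved far less. Pex14 was read at 15.7 to 24.7 CPM in colon libraries labelled KO and 24.3 to 41.6 in WT (-0.74 ± 0.26, adjusted p = 0.224), and at 15 to 23.6 against 28 to 37.8 in jejunum (-0.83 ± 0.26, adjusted p = 0.205). The strand setting of the bulk counting is not stated in the labels, so reads of Gm17029 and Pex14 cannot be told apart with certainty. Casz1, the nearest gene upstream, overlapped between labelled KO and WT in both tissues (-0.7 ± 0.35 and -0.47 ± 0.35). In nuclei, Gm17029 had 84 UMIs in cluster 0 labelled WT (59.9 UMI CPM) and 8 labelled KO (24.3 UMI CPM), a ratio of 0.405 (0.169 to 0.835). Pex14 in the same nuclei stood at 92.1 and 91 UMI CPM. The cluster 12 values were 34.3 and 17.4 UMI CPM, with an interval of the ratio (0.198 to 1.25) that includes 1. Of the WT library's 127 Gm17029 UMIs, 78% were in smooth muscle-like nuclei.

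Nek10, the kinase, went opposite ways in bulk RNA and in nuclei. Jejunum libraries labelled KO held 100 to 102 reads (5.08, 2.8 and 2.29 CPM) and WT jejunum 22, 16 and 42 (0.81, 0.466 and 1.12 CPM). Colon libraries labelled KO held 3.39, 2.53 and 1.32 CPM and WT colon 1.64, 1.24 and 1.01 CPM. The jejunum groups did not overlap, with every library labelled KO higher, and the colon groups did. The log2 differences were 2.07 ± 0.49 in jejunum (edgeR, adjusted p = 0.114) and 0.89 ± 0.47 in colon (adjusted p = 0.417), neither past the threshold. No gene of the annotation overlaps Nek10. The summed level of 8 macrophage markers was higher in the same jejunum libraries, 588 to 1450 CPM labelled KO against 171 to 393 in WT, all 8 with a positive difference and none past the threshold. Other lists moved in jejunum too, none with a marker past the threshold. Positive differences were found for 6 of 6 lymphatic endothelial, 7 of 8 blood endothelial and 6 of 7 B lymphocyte markers tested. Negative ones were found for 15 of 16 enteric neuron markers. The part of any cell type in the Nek10 value was not tested, and nuclei were sequenced from colon only. There, the 129 macrophage-like nuclei labelled KO held 0 Nek10 UMIs, and the 44 labelled WT held 10.

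In colon nuclei, the Nek10 ratio between the libraries varied from cluster to cluster. Cluster 0 stood at 280 UMI CPM (253 to 309) labelled WT and 170 (128 to 221) labelled KO, a ratio of 0.607 (0.45 to 0.805). Cluster 12 stood at 39.6 and 39.9 UMI CPM and cluster 1 at 43.7 and 45.8, with ratios of 1.01 (0.504 to 2.08) and 1.05 (0.471 to 2.56). Cluster 16 had 24 UMIs labelled WT and 0 labelled KO, at least 1.64-fold lower against a floor of 3 counts in that cluster. The pooled ratio was lower than any of the first 3, 0.361 (0.288 to 0.448), and the cluster with the highest level held a smaller share of the nuclei labelled KO; with the 4 clusters at equal weight the ratio was 0.582. Outside muscle Nek10 was lower as well, on few UMIs. Enteric glia-like nuclei had 25 UMIs labelled WT and 1 labelled KO, and neuron-like nuclei 18 and 2. Epithelial-, macrophage- and lymphocyte-like nuclei together had 25 and 2. The ratios were 0.0929, 0.16 and 0.11. Interstitial cell of Cajal-like nuclei had 0 and 1. Carmn went from 114 to 3.7 UMI CPM in epithelial-like nuclei. The part of muscle RNA in those other classes was not tested. Over all nuclei Nek10 went from 73.1 to 20.7 UMI CPM, where bulk colon showed a mean of 1.3 CPM in WT and 2.41 labelled KO. Accessible regions were listed at the locus in both libraries, none of them shared. The WT list has chr14:14837790-14838652, inside the gene and centred 34806 bases from its GENCODE start, with 44 counts in smooth muscle-like nuclei, 32 of them in cluster 0 (77.4 CPM of region counts), 8 in neuron-like nuclei and 0 in epithelial-, macrophage- and lymphocyte-like nuclei. The KO list has chr14:14805478-14806333, with 3 counts in smooth muscle-like nuclei. Regions were called in each library on its own, so a region missing from a list has no count there.

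**Figure D2:**
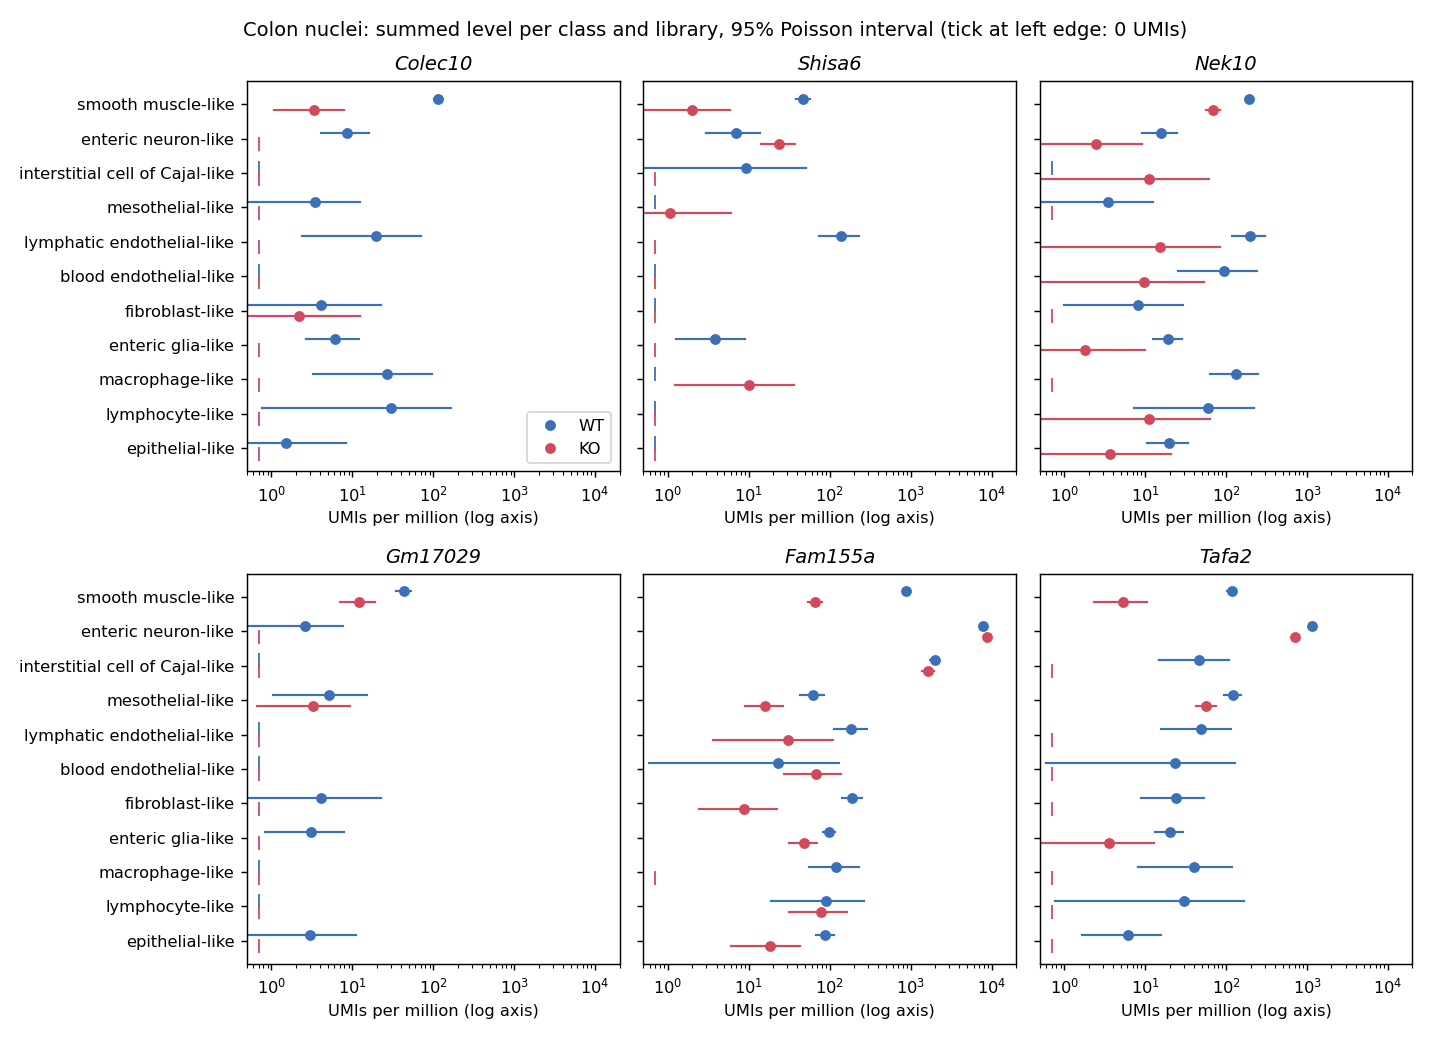
Level of each gene in UMI CPM (log axis) by class of colon nuclei, WT in blue and labelled KO in red, with 95% Poisson intervals; a tick at the left edge is a class with 0 UMIs. Colec10 and Gm17029 peak in smooth muscle-like nuclei, Shisa6 and Nek10 are also high in WT lymphatic endothelial-like nuclei through 2 nuclei, and Fam155a and Tafa2 peak in neuron-like nuclei of both libraries.

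Fam155a and Tafa2 differ from the other 4 members in where their RNA was. Neuron-like nuclei were 5.09% of the nuclei labelled WT and held 67.8% of its 13397 Fam155a UMIs and 69% of its 1914 Tafa2 UMIs, against 15.1% and 14.1% in smooth muscle-like nuclei. In the KO library neuron-like nuclei held 88.6% and 78.1%, and smooth muscle-like nuclei 1.23% and 1.09%. Cluster 10, left unnamed and with the deepest nuclei (median 7943.5 UMIs labelled WT), held a further 1767 Fam155a and 204 Tafa2 UMIs in 48 nuclei labelled WT.

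Fam155a, the NALCN subunit, was measured in bulk colon at 20.9, 10.2 and 16.8 CPM in WT and 21.1, 9.12 and 18.2 CPM labelled KO. Jejunum gave 10.3, 7.6 and 10.8 CPM in WT and 4.47, 8.57 and 8.01 CPM labelled KO. Both pairs of groups overlapped, with log2 differences of 0.02 ± 0.36 in colon (edgeR, adjusted p = 0.991) and -0.44 ± 0.37 in jejunum (adjusted p = 0.646). Neuron-like nuclei kept the gene: cluster 11 stood at 4140 UMI CPM labelled WT and 5680 labelled KO, and cluster 17, led by Nos1, the neuronal nitric oxide synthase, at 12500 and 13000. Interstitial cell of Cajal-like nuclei stood at 1970 (1710 to 2250) and 1650 (1400 to 1940), and 32 of 57 and 24 of 42 of them had a UMI. Smooth muscle-like nuclei stood apart from these, at 880 (842 to 919) labelled WT and 66.2 (53.8 to 80.7) labelled KO, a ratio of 0.0753. A lower level was not particular to muscle. Fibroblast-like nuclei went from 190 to 8.81 (47 and 4 UMIs) and lymphatic endothelial-like nuclei from 185 to 30.3. Enteric glia-like nuclei went from 98.4 to 48.2 and mesothelial-like nuclei from 61.9 to 16.1. Blood endothelial-like nuclei went the other way, from 23.3 to 67.3, on 1 and 7 UMIs. Each of the 4 muscle clusters was lower by over 4-fold: 823 to 91 in cluster 0, 2360 to 339 in cluster 16, 219 to 45.1 in cluster 12 and 214 to 40.1 in cluster 1. Cluster 16, with the lowest naming score of these, held 746 of the 2026 Fam155a UMIs of smooth muscle-like nuclei labelled WT.

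Tafa2, the secreted chemokine-like protein, was read in bulk colon at 3.99, 2.64 and 2.81 CPM in WT and 4.1, 2.32 and 2.79 CPM labelled KO, which overlap (-0.03 ± 0.37 log2, edgeR, adjusted p = 0.984). In jejunum the WT libraries gave 1.55, 1.66 and 2.61 CPM and those labelled KO 1.52, 0.852 and 0.951 CPM. The jejunum groups did not overlap, by a narrow gap, and the log2 difference of -0.82 ± 0.38 did not pass (adjusted p = 0.385). The summed level of the 16 enteric neuron markers moved the same way there: it ran from 736 to 829 CPM in jejunum labelled KO and from 842 to 1070 CPM in WT, 15 of the 16 had a negative difference and none passed the threshold. The part of neuronal RNA in the bulk values of Fam155a and Tafa2 was not tested. In neurons the 2 genes parted: cluster 11 held Tafa2 at 2040 UMI CPM labelled WT and 1260 labelled KO, in 65 of 69 and 33 of 36 nuclei, while the Nos1-led cluster 17 had 1 and 2 UMIs. Mesothelial-like nuclei, the outer lining of the gut, held it at 120 (93.8 to 152) and 57 (42.7 to 74.6) UMI CPM. Smooth muscle-like nuclei went from 117 (103 to 132) to 5.35 (2.31 to 10.5), a ratio of 0.0458 (0.0196 to 0.0916). By cluster the UMIs labelled WT and KO were 193 and 7 in cluster 0, 47 and 0 in cluster 16, 29 and 1 in cluster 12, and 0 and 0 in cluster 1.

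Because neurons hold so much of both transcripts, neuronal RNA set free during nuclei isolation could appear in other droplets, and its level was measured. Epithelial-, macrophage- and lymphocyte-like nuclei, taken as classes that should lack neuronal RNA, held Fam155a at 91.2 UMI CPM labelled WT and 21.6 labelled KO, and Tafa2 at 10.4 (8 UMIs) and 0. As a share of the level in neuron-like nuclei of the same library, those are 1.16% and 0.243% for Fam155a, and 0.914% for Tafa2 in the WT library. The median of the 16 neuron markers in the same classes was 1.4% and 1.27%. Smooth muscle-like nuclei labelled WT held Fam155a at 11.2% and Tafa2 at 10.2% of the neuron level, where the median neuron marker stood at 0.569%; 15 of the 16 markers were below both genes. The exception was Kcnip4, at 151% of its neuron level, and without it the other 15 markers summed to 0.517%. In the KO library Fam155a stood at 0.747%, Tafa2 at 0.748%, and the median marker at 0.272%, with 11 of 16 markers below each gene. Of the 888 smooth muscle-like nuclei labelled WT, 725 had no UMI of those 15 markers. In these 725, Fam155a stood at 874 and Tafa2 at 109 UMI CPM. The 351 such nuclei of 431 labelled KO had 66.2 and 5.84. This restriction cannot tell nuclei with free neuronal RNA from nuclei without it. The 15 markers summed to 108 UMI CPM labelled WT and 91 labelled KO, at median depths of 1888.5 and 2333 UMIs. At such levels most nuclei hold no marker UMI even where free RNA is present.

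The ratio of the 2 genes also varied between types. Tafa2 made up 12.7% (12 to 13.3) of the summed UMIs of both genes in neuron-like nuclei labelled WT and 10.3% (4.53 to 19.2) in the classes that should lack them. It made up 14.3% (12.5 to 16.3) in cluster 0, 25.9% (18.1 to 35) in cluster 12, 5.93% (4.39 to 7.8) in cluster 16 and 0% (0 to 8.04) in cluster 1. Interstitial cell of Cajal-like nuclei stood at 2.27% (0.742 to 5.22) and mesothelial-like nuclei at 66% (56.2 to 75). The neuron-like nuclei are themselves a mixture, at 33.1% in cluster 11 and 0.0156% in cluster 17, so their pooled value sets no single level for neuronal RNA. The part of free neuronal RNA in the levels of the muscle clusters was not tested beyond these values.

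**Figure D3:**
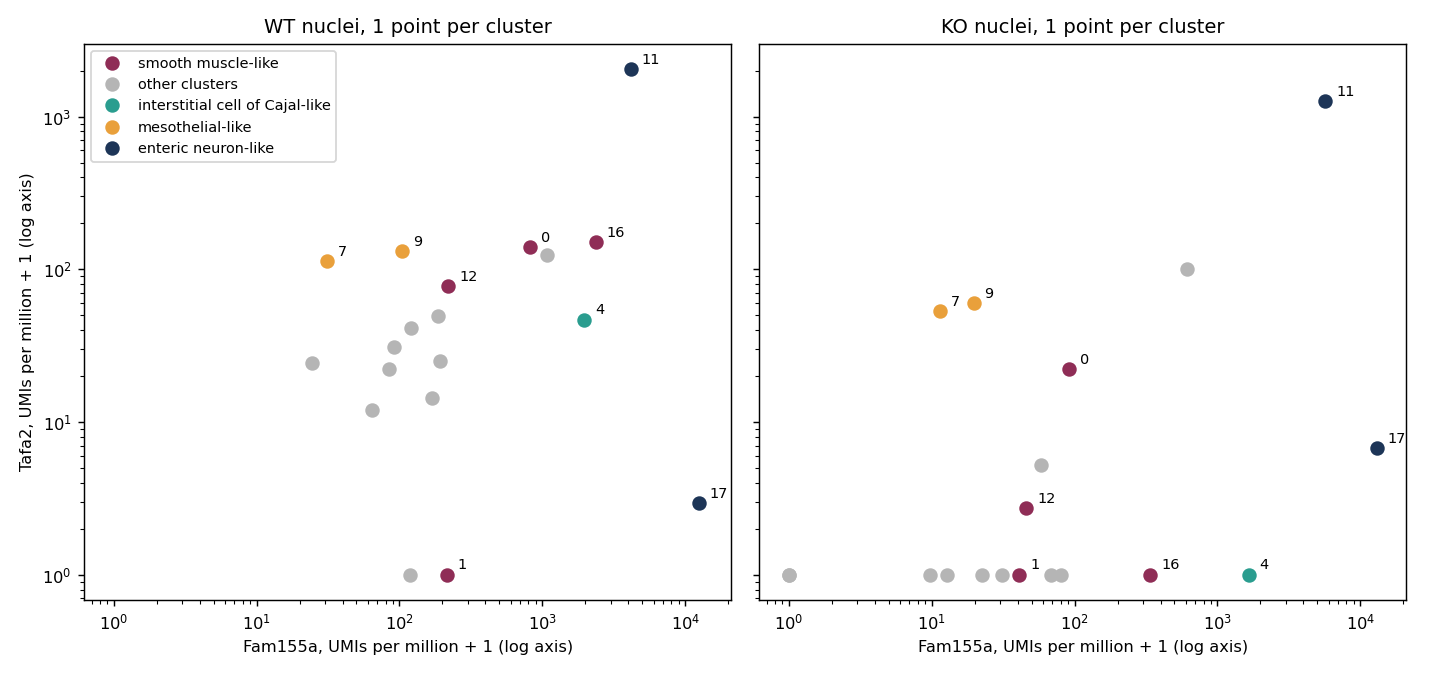
Fam155a against Tafa2 in UMI CPM plus 1 (both axes log), 1 point for each of the 19 clusters in the WT (left) and KO (right) library, with cluster numbers beside the coloured points. In the WT library the muscle clusters 0, 12 and 16 have less Fam155a than the neuron-like clusters. They have more of it than the grey ones, apart from the unnamed cluster 10, which lies above clusters 0 and 12 at 1070. Neuron-like cluster 17 has less Tafa2 than these muscle clusters, at 1.95. In the KO library the muscle clusters move toward the lower grey points while the neuron-like clusters 11 and 17 keep the highest Fam155a levels.

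Shares of nuclei with a UMI followed the summed levels. Fam155a was seen in 36.1% of smooth muscle-like nuclei labelled WT (exact interval 33 to 39.4) and 7.19% labelled KO (4.94 to 10.1), and in 8.58% and 2.07% of the nuclei that should lack it. Tafa2 was seen in 14% and 1.16%, against 1.86% and 0%. Median depths were 1888.5 and 2333 UMIs in smooth muscle-like nuclei and 1302 and 1076.5 in the others. Thinned to 1000 UMIs per nucleus, which left out 173 shallower smooth muscle-like nuclei labelled WT and 66 labelled KO, the shares were 30.5% and 4.05% for Fam155a, 7.95% and 0.61% for Tafa2, 8.44% and 0.536% for Colec10, 13.1% and 6.72% for Nek10, 3.69% and 0.202% for Shisa6, and 3.73% and 1.59% for Gm17029. Each of the 6 was seen in fewer nuclei labelled KO. On this thinned scale smooth muscle-like nuclei had the highest share of any class in the WT library for 4 members, Colec10, Shisa6, Nek10 and Gm17029.

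**Figure D4:**
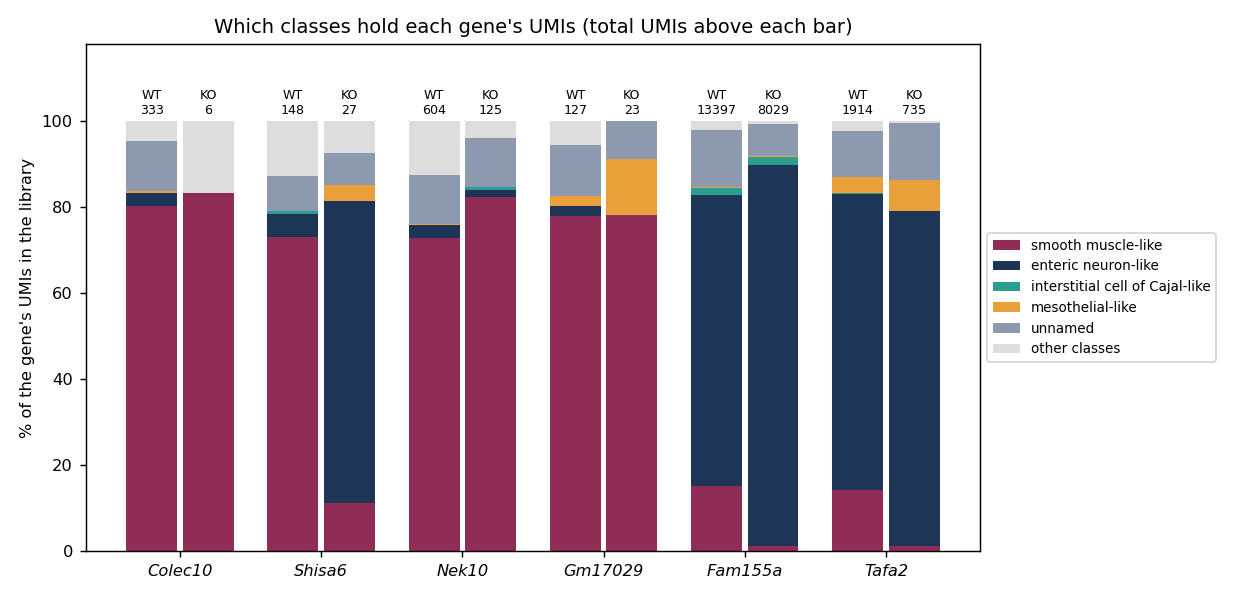
Share of each gene's UMIs held by each class of nuclei in the WT and KO library, as a percentage of that gene's UMIs in the library (total above each bar). Smooth muscle-like nuclei hold 72.8% to 80.2% of Colec10, Shisa6, Nek10 and Gm17029 in WT, and neuron-like nuclei hold 67.8% and 69% of Fam155a and Tafa2.

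Set side by side, bulk colon and smooth muscle-like colon nuclei differed in sign for Nek10, while Fam155a and Tafa2 stood at 0.02 and -0.03 log2 in bulk colon and were lower in the nuclei labelled KO. All 6 were lower in smooth muscle-like nuclei labelled KO by over 1.5 times; 9.12% of the 5197 genes with at least 100 UMIs there were. Colec10, Shisa6, Tafa2 and Fam155a had the 4 lowest ratios of those genes, and Gm17029 and Nek10 ranked 45 and 71. This is the measure that chose the members. In cluster 0 alone, all 6 were lower by that amount and 13.4% of genes with at least 50 UMIs were. In bulk colon, 2 of the 6 passed the threshold, Colec10 and Gm17029, both lower. Their bulk colon results were in view when the members were chosen, so these calls lend no support. Of all genes, 0.388% passed in either direction, 0.273% lower and 0.115% higher. No overlap between the groups was seen for 3 of the 6, Colec10, Shisa6 and Gm17029, all lower, beside 19.2% of all genes (10.4% lower, 8.79% higher). In bulk jejunum none of the 6 passed with edgeR (0.215% of all genes did, 0.091% lower and 0.124% higher; 4 members had an unadjusted p under 0.05, as did 13.2% of all genes). DESeq2 called 4 members and 3.85% of all genes, and limma voom 2 members and 0.417%. Between the jejunum groups 5 members did not overlap, Nek10 upward and Colec10, Shisa6, Gm17029 and Tafa2 downward, beside 22.2% of all genes (11.2% lower, 11% higher). Members' median log2 difference was -0.80 in colon and -1.23 in jejunum, beside 0.00 and 0.02 over all genes. For the change between tissues no member passed with edgeR, DESeq2 or limma voom, nor did any of the 20886 genes with edgeR; 1 member and 869 genes (4.16%) had an unadjusted p under 0.05. Between the WT tissues 3 of 6 did not overlap, Colec10 and Shisa6 lower and Tafa2 higher in colon, beside 22.9% of all genes (11.7% lower, 11.2% higher).

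Summed over all nuclei, in the manner of a bulk sample, the ratio for Fam155a was 0.82 (0.797 to 0.843) and for Tafa2 0.525 (0.482 to 0.572), where smooth muscle-like nuclei gave 0.0753 and 0.0458. For Colec10 the 2 sums gave 0.0246 and 0.0288, for Gm17029 0.248 and 0.28, for Nek10 0.283 and 0.361, and for Shisa6 0.25 and 0.0428. Of the 11013 genes with at least 100 UMIs over all nuclei, 5.99% were lower by over 1.5 times.

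**Figure D5:**
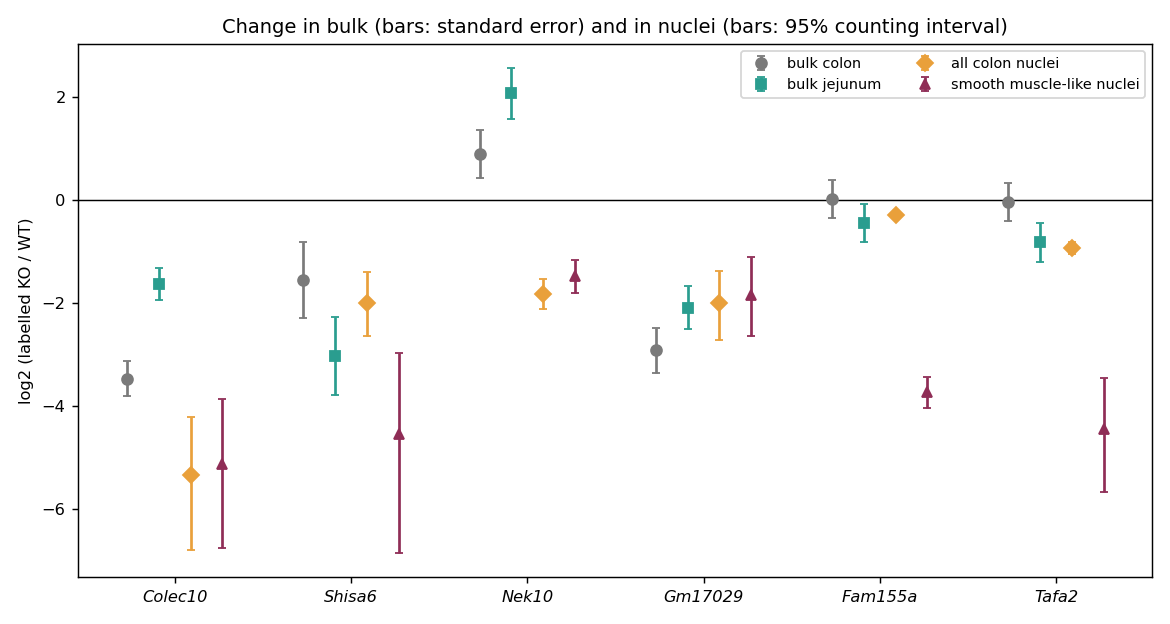
log2 ratio of labelled KO to WT for each gene in bulk colon and bulk jejunum (bars are standard errors, n = 3 and 3) and, from 1 library per genotype, in all colon nuclei and in smooth muscle-like nuclei (bars are 95% counting intervals). Nek10 lies above 0 in bulk and below 0 in nuclei, and Fam155a and Tafa2 lie near 0 in bulk colon and at -3.73 and -4.45 in smooth muscle-like nuclei.

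Actn2, which anchors actin at Z-discs, and Pln, the inhibitor of the sarcoplasmic calcium pump, had been noted with Colec10 and Nek10. In cluster 0 their KO to WT ratios were 0.823 (0.624 to 1.07) and 0.687 (0.411 to 1.09), with intervals that overlap that of Nek10. In bulk colon Pln stood at 38.4 to 41.5 CPM in WT and 2.74 to 10 labelled KO (-2.93 ± 0.43, edgeR, adjusted p = 0.024), and in jejunum at 70.2 to 94.5 and 48.4 to 71.3 (-0.46 ± 0.39, adjusted p = 0.654). Actn2 overlapped between labelled KO and WT in both tissues. The summed level of the 10 smooth muscle markers was 35100 to 46400 CPM in colon labelled KO and 48900 to 71500 in WT, without overlap, and all 10 had a negative difference there, none past the threshold; in jejunum the ranges were 44100 to 91700 and 39600 to 43700. Other lists moved in jejunum as well. The summed level of 8 vascular mural markers was 2310 to 3680 CPM labelled KO and 4260 to 5670 in WT, although 6 of the 8 had a positive difference. The sum of 6 skeletal muscle markers was 52.9 to 102 CPM labelled KO and 119 to 133 in WT. Yet 4 of the 5 skeletal muscle markers tested had a positive difference and 1 a negative one. In colon the skeletal muscle sum was 28.4 to 41 CPM labelled KO and 67.2 to 89 in WT. Of the 5 markers tested there, 2 had a positive and 3 a negative difference. Of them 1 passed the threshold, lower, beside 0.273% of all genes. The part of these cell types in the members' bulk values was not tested.

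Of 38 genes of the members' families and partners, 35 were tested in bulk and none passed in either KO comparison with edgeR, while an unadjusted p under 0.05 was found for 6 of the 35 in colon and 3 in jejunum, beside 14.5% and 13.2% of all genes. DESeq2 called 1 in colon (Colec12) and 2 in jejunum (Gria3, Shisa9), beside 4.6% and 3.85% of all genes. Among collectins, Colec12, a scavenger receptor with a collectin head, gave 0.81 ± 0.22 in colon (adjusted p = 0.141). Among AMPA receptor genes, the subunit Gria3 gave 0.99 ± 0.23 in jejunum (adjusted p = 0.113) and was the only listed gene past the threshold between WT tissues, higher in colon by 1.35 ± 0.23 (adjusted p = 0.017). The smallest adjusted p of the KO comparisons was 0.282 among the 10 other Nek kinases, 0.451 among NALCN, Unc79 and Unc80, the core and partners of Fam155a's channel, and 0.346 among the other TAFA genes.

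By likeness across the 12 bulk libraries (Pearson r of log2 CPM among 15972 genes, the groups being part of what the points share), genes among the 3 closest to each member were as follows. Colec10 was close to Tspan12 (0.98), Gucy1b1 and Srl (both 0.97). Gm17029 was close to 2510009E07Rik, Bves (both 0.97) and Six5 (0.96), Fam155a to Kcnc2 (0.98) and Ntng1 (0.97), and Tafa2 to Popdc3 (0.97), Arnt2 (0.92) and Tmc3 (0.91). Shisa6 was close to Slc25a39 (0.93), Mrps36 (0.93) and Mrps27 (0.92), and Nek10 to Phf11c (0.89) and Myh10 (0.87). Across the 19 clusters of nuclei, pooled over both libraries, Colec10 was closest to Kbtbd12 (0.85), Nek10 to Pln (0.84), Shisa6 to Fam124a (0.81), Gm17029 to Gm19610 (0.78), Fam155a to Epha6 (0.94) and Tafa2 to Chat (0.8).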

How the data were processed

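Per the submitters' processing notes, the authors aligned bulk reads with STAR 2.0.4b and made the deposited counts per gene with featureCounts 1.4.5 (GRCm38/mm10). The nuclei counts come from cellranger-arc 2.0.0, per the file headers; all deposited gene values there are even, so they were halved to give UMIs. The members and gene lists were chosen with earlier results of these data known. Bulk genes were filtered by expression (20886 of 40481 kept), scaled by TMM and tested with edgeR 4.0.16 (quasi-likelihood, R 4.3.3) in 1 fit of 12 libraries with a mean per group, with Benjamini-Hochberg adjustment over those 20886 genes and 0.05 as the threshold; the script was tested on simulated data. DESeq2 1.42.0, limma 3.58.1 (voom), other scalings and filters, and fits without each library were alternatives. Depth of 24254905 to 44315104 counts leaves genes near 1 CPM with few reads. Nuclei with at least 500 UMIs, 200 genes and at most 5% mitochondrial UMIs were clustered in scanpy 1.11.5 without the 6 members (30 components, resolution 0.8); marked doublets (7 WT, 10 KO) were removed. Classes were named from marker lists with a minimum score of 0.9 set after the data were seen. UMIs were summed by class, with exact 95% Poisson and binomial intervals (counting error only) and a floor of 3 counts. The genes named are the 6 members, Carmn, noted companions, neighbouring genes, family genes past a threshold or of highest level, and the 3 genes most like each member, of which some are not reported here. Accessible-region counts were used as deposited by the authors.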

Additional observations from a re-analysis of the deposited data

How the results depend on the processing

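Of 486 recalculated values for single genes, 444 kept their direction and their side of the threshold or their size, 6 lost the threshold, 18 gained it, 8 changed sign and 10 moved. In colon, the 2 members past the threshold became 0 with only the libraries compared, where Colec10 had an adjusted p of 0.117 and Gm17029 of 0.123, and 1 to 2 when 1 library was left out: Gm17029 was lost without colon KO t4, colon KO t6, colon WT t1 or jejunum WT t1. In jejunum, 0 members became 4 with DESeq2, 2 with limma voom, 1 without the low-count filter, and 0 to 1 when 1 library was left out (Colec10 without colon KO m1 or colon KO t4, Shisa6 without jejunum KO m1, Gm17029 without jejunum KO t1). Between WT tissues, 1 member became 2, with Shisa6 added, under DESeq2, limma voom and only the libraries compared, and 1 to 2 when 1 library was left out (2 without jejunum KO m1). Family genes past the threshold went from 0 to 1 in colon and from 0 to 2 in jejunum with DESeq2. With 1 library left out, Fam155a in colon ranged from -0.22 to 0.3 log2, Tafa2 in colon from -0.3 to 0.2 and Gm17029 between WT tissues from -0.63 to 0.05, so these have no stable sign; the cause was not tested. Reversals came without colon KO m1 (-0.22), colon KO t6 (-0.06) and colon WT t6 (-0.21) for Fam155a, without colon KO t4 (0.13), colon KO t6 (0.05) and colon WT t1 (0.2) for Tafa2, and without colon WT t6 (0.05) and jejunum WT t7 (0.01) for Gm17029. Over all genes, DESeq2 called 372 higher and 588 lower in colon against 24 and 57 with edgeR, 474 and 331 in jejunum against 26 and 19, and 598 and 558 between WT tissues against 145 and 180; limma voom called 40 and 47 in jejunum. With only the libraries compared, the counts were 0 and 0 in colon, 11 and 10 in jejunum, and 364 and 540 between WT tissues. The replicate block was fitted with limma voom for the KO comparisons, and for the WT tissues with edgeR on the WT libraries alone, so tool or libraries changed together with the block. With the sample tag as that block, 2 members passed in jejunum (Colec10 and Shisa6, adjusted p = 0.0183 and 0.0174) and 2 between WT tissues, and 33 and 43 genes were called in jejunum and 231 and 359 between WT tissues. Same-tag correlations of deviations between the tissues were 0.1, -0.01 and 0.06 in WT and -0.16 and -0.09 in KO. With 3 libraries per group, these values cannot show whether equal tags mark the same animal, so the pairing is not known. In nuclei all 6 members stayed lower under each alternative run; with clusters equally weighted the ratio of Fam155a was 0.142, and the ratio of Nek10 was 0.482 by mean UMIs per nucleus. The equal weighting, the removal of the 5% highest doublet scores and the restriction to nuclei without neuron marker UMIs were chosen after seeing the data. Shisa6 in bulk rests on 7 to 40 reads per library in colon and 8 to 30 in jejunum labelled KO.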

Other observations

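Families of the members in smooth muscle-like colon nuclei, 1 library per genotype and therefore without a test, did not all follow the members. Colec12, a scavenger receptor of the collectin family, stood at 245 UMI CPM labelled WT and 588 labelled KO, a ratio of 2.4, where Colec10 was lower. The AMPA receptor subunit Gria3 stood at 208 and 381, a ratio of 1.84, where Shisa6 was lower. The subunit Gria1 was lower, at 17.4 and 4.02 (ratio 0.231, 0.0801 to 0.548), and Gria2 and Gria4 had few UMIs, with ratios of 0.154 and 0.428 whose intervals include 1. Of the TAFA genes, Tafa1 (20 and 8.7) and Tafa5 (20 and 7.36) had ratios of 0.435 (0.216 to 0.82) and 0.368 (0.172 to 0.722). Over both libraries, neuron-like nuclei held Tafa1 at 1520 and Gria1 at 323 UMI CPM, and enteric glia-like nuclei held Tafa5 at 309. The part of free RNA from those classes in the low muscle values was not tested. The kinases Nek1 (229 and 174) and Nek7 (166 and 122) had ratios of 0.759 and 0.736, beside 0.361 for Nek10, while Nek3 (10.9 and 22.1) and Nek6 (13 and 32.8) had ratios of 2.03 and 2.52. Nalcn, the channel that Fam155a serves, was low in these nuclei at 4.78 and 2.01 UMI CPM, and its level in neuron-like nuclei was 421.

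Several of these values rest on few nuclei. Nek10 in lymphatic endothelial-like nuclei labelled WT came from 20 UMIs in 2 of 48 nuclei, and the 14 Shisa6 UMIs there also came from 2 nuclei. Nek10 stood at 195 UMI CPM in that class, beside 191 in smooth muscle-like nuclei labelled WT. The region list of the KO library held chr11:66525860-66526841 at the Shisa6 start, with 15 counts in smooth muscle-like nuclei (36.8 CPM of region counts) and 10 in neuron-like nuclei, and the WT list held none there.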
